A study of Mus musculus with 160 samples.

Results

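Colonocytes, the absorptive epithelial cells of the large intestine, recover salt and water from the gut content, and 10 genes of this machinery were followed in the mouse distal colon. The rule that chose them is a list of names and uses no measured value, and they are 10 of the 39179 genes of the count files, with Ensembl identifiers mapped to mouse symbols. *Slc26a3* encodes the apical chloride/bicarbonate exchanger, *Car1* and *Car4* carbonic anhydrases, *Aqp8* an aquaporin and *Slc9a3* the sodium/proton exchanger NHE3. *Scnn1a*, *Scnn1b* and *Scnn1g* encode the alpha, beta and gamma subunits of the epithelial sodium channel ENaC, *Atp12a* the colonic proton/potassium ATPase and *Cftr* the apical chloride channel that drives secretion. In GRCm38, the build of the count files, all are protein-coding genes: *Slc26a3* lies at chr12:31390871-31473917, *Car1* at chr3:14766216-14808368 (minus strand, the other 9 plus), *Car4* at chr11:84957786-84966044, *Aqp8* at chr7:123462291-123468004, *Slc9a3* at chr13:74121457-74169442, *Scnn1a* at chr6:125320659-125344943, *Scnn1b* at chr7:121865038-121918514, *Scnn1g* at chr7:121734479-121768475, *Atp12a* at chr14:56365068-56388550 and *Cftr* at chr6:18170687-18322768. *Scnn1b* overlaps *Cog7* on the opposite strand (median 38.8 CPM, the read count scaled to library depth).

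The samples were 160 distal colons from 4 lines of mice, each with homozygous knockouts of 1 gene and wild-type controls, and RNA was measured as read counts per gene. The *Nckap1l* line (labelled HEM1) held 16 knockouts and 15 wild types, *Dock2* 18 and 24, *Gpsm3* 20 and 20, and *Dok3* 26 and 21. The *Dok3* mice were of strain 129 and the others C57BL6/J, and the mice were used at 8 to 10 weeks of age. The *Nckap1l* knockouts included 4 females and the wild types 8, the *Dock2* knockouts 8 and the wild types 12, whereas all *Gpsm3* and *Dok3* mice were labelled male. Dextran sodium sulfate (DSS), a polymer that injures the colonic epithelium, was given in the water for 5 days. Water followed for 5 days (7 in the *Nckap1l* line), and tissue was taken on day 10, or on day 12 in the *Nckap1l* line. The dose in the labels was 3% for *Dock2* and *Gpsm3* and 3.5% for every *Dok3* sample, with none for *Nckap1l*. The paper describes a slightly lower dose for *Nckap1l* knockouts, and a dose below the labelled one in an earlier round of *Dok3* experiments. Whether any of the *Dok3* samples come from that round is not in the labels. Treated and untreated mice were both sequenced, and the labels do not say which samples are which, so each comparison below is over both. The lines differ in strain, dose, day and sample numbers together, and these cannot be told apart when lines are set side by side.

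In the healthy colon, sodium enters surface colonocytes through NHE3 in exchange for protons and chloride enters through SLC26A3 in exchange for bicarbonate, with carbonic anhydrases supplying both ions, so that sodium chloride is taken up without a net charge. In the distal colon, ENaC adds an electrogenic route for sodium that aldosterone controls through the mineralocorticoid receptor, and the proton/potassium ATPase takes up potassium there. Loss of SLC26A3 in humans causes congenital chloride diarrhea, and reduced ion absorption is a known feature of diarrhea in colitis.

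For some of the members, the bases before the start site are shown so that the letters can be seen beside the levels. RefSeq (GRCm38.p6) gave such a window for 7 of the 10 genes. The windows of 4 follow, 250 bases each, 5′ to 3′ on the plus strand and ending at the base before the RefSeq start site, with capitals for the motifs searched on both strands, which were the TATA box TATAAA, the GC box GGGCGG, the caudal-type pattern TTTATG and the HNF4-type pattern CAAAGTCCA. The windows of *Car4* and *Aqp8* held none of these letters and are shown because these genes varied most closely with *Slc26a3*.
Slc26a3, chr12:31437969-31438218: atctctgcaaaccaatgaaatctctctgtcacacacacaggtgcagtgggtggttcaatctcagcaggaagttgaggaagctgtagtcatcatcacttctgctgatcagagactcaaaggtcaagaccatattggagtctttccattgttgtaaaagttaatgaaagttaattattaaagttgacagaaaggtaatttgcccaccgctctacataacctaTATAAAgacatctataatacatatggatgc
Car4, chr11:84957504-84957753: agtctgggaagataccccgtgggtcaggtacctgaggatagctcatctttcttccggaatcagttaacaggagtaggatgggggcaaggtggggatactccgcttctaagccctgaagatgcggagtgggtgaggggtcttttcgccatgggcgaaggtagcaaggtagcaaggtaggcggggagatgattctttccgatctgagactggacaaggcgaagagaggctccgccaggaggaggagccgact
Aqp8, chr7:123462044-123462293: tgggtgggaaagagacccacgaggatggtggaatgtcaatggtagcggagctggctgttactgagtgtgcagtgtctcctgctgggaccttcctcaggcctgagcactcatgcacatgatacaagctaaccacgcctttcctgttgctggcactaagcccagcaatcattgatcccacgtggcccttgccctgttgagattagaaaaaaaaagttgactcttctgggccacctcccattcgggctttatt
Slc9a3, chr13:74121163-74121412: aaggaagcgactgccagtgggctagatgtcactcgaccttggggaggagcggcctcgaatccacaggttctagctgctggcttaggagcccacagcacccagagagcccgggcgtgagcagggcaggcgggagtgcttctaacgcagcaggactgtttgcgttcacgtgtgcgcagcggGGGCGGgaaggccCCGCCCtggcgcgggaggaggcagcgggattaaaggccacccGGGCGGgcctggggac
The window of *Slc26a3* held TATAAA 30 bases before the start, a motif present in 12.4% of the 32851 windows of that length. *Slc9a3* held GGGCGG at 3 places (in 32.7% of all windows), as did the windows of *Cftr*, *Scnn1b* and *Scnn1g* at least once. CAAAGTCCA (0.384% of all windows) was in none of the 7, and TTTATG (10.8%) was in that of *Scnn1g*. The share of G and C was 38.8% for *Slc26a3*, 56.4% for *Car4*, 52.4% for *Aqp8* and 67.6% for *Slc9a3*, against a median of 52.4% over all windows. These matches are descriptions of letters and were tested against no level.

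Total counts ranged from 4344988 to 19993833 with a median of 15989625, and 3 counts were worth between 0.15 and 0.69 CPM (scaled by TMM). The epithelial marker *Epcam* lay between 258 and 1626 CPM in all 160 libraries. The mean of 13 epithelial markers ranged from 6.93 to 9.42 log2 CPM. Among them *Cdx2* had a median of 27.6 CPM and a lowest value of 0.786. In 32 libraries a list of 10 squamous keratinocyte genes such as *Krt5* and *Krt14* had a mean of 6.65 to 9.71 log2 CPM, against at most 2.49 in the other 128, with 15 of the 32 in the *Nckap1l* line, 5 in *Dock2*, 3 in *Gpsm3* and 9 in *Dok3*. In *Dok3* knockout replicate 9 most of the distal Hox genes that mark the label were low. *Hoxb13* was at 1.93 CPM and *Hoxd13* at 0.129, against at least 28.5 and 37.2 in every other library. *Hoxa13*, of the same list, was not low there, at 46.7 CPM against 15.5 to 108 in the others. In 5 *Dok3* libraries sex-linked genes went against the label male. The targeted gene was called lower in knockouts by the quasi-likelihood test over all genes only for *Gpsm3* (log2 difference -2.06, edgeR adjusted p = 9.97e-05). Its estimate was also negative in *Nckap1l* (-1.10, SE 0.41), *Dock2* (-0.62, SE 0.17, adjusted p = 0.211) and *Dok3* (-0.48, SE 0.39). Its range overlapped that of the wild types in each line, so the labels were checked only in part. In bulk tissue, fewer cells of a type and less RNA per cell cannot be told apart. Nothing in the labels ties samples to litters or cages, so p-values measure the spread between these samples.

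All 10 genes were detected in every library, at a lowest count of 5 (*Slc9a3*). Over the 160 libraries the median level was 940 CPM for *Slc26a3*, 734 for *Car1*, 538 for *Car4*, 416 for *Atp12a*, 197 for *Aqp8*, 171 for *Scnn1a*, 164 for *Cftr*, 21.1 for *Slc9a3*, 18.6 for *Scnn1b* and 14.1 for *Scnn1g*. The genes differed in spread: the highest library exceeded the lowest 799-fold for *Slc9a3*, 426-fold for *Aqp8*, 348-fold for *Slc26a3* and 286-fold for *Atp12a*, but 18.2-fold for *Scnn1b*, 13.3-fold for *Cftr* and 12.2-fold for *Scnn1a*.

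**Figure D1:**
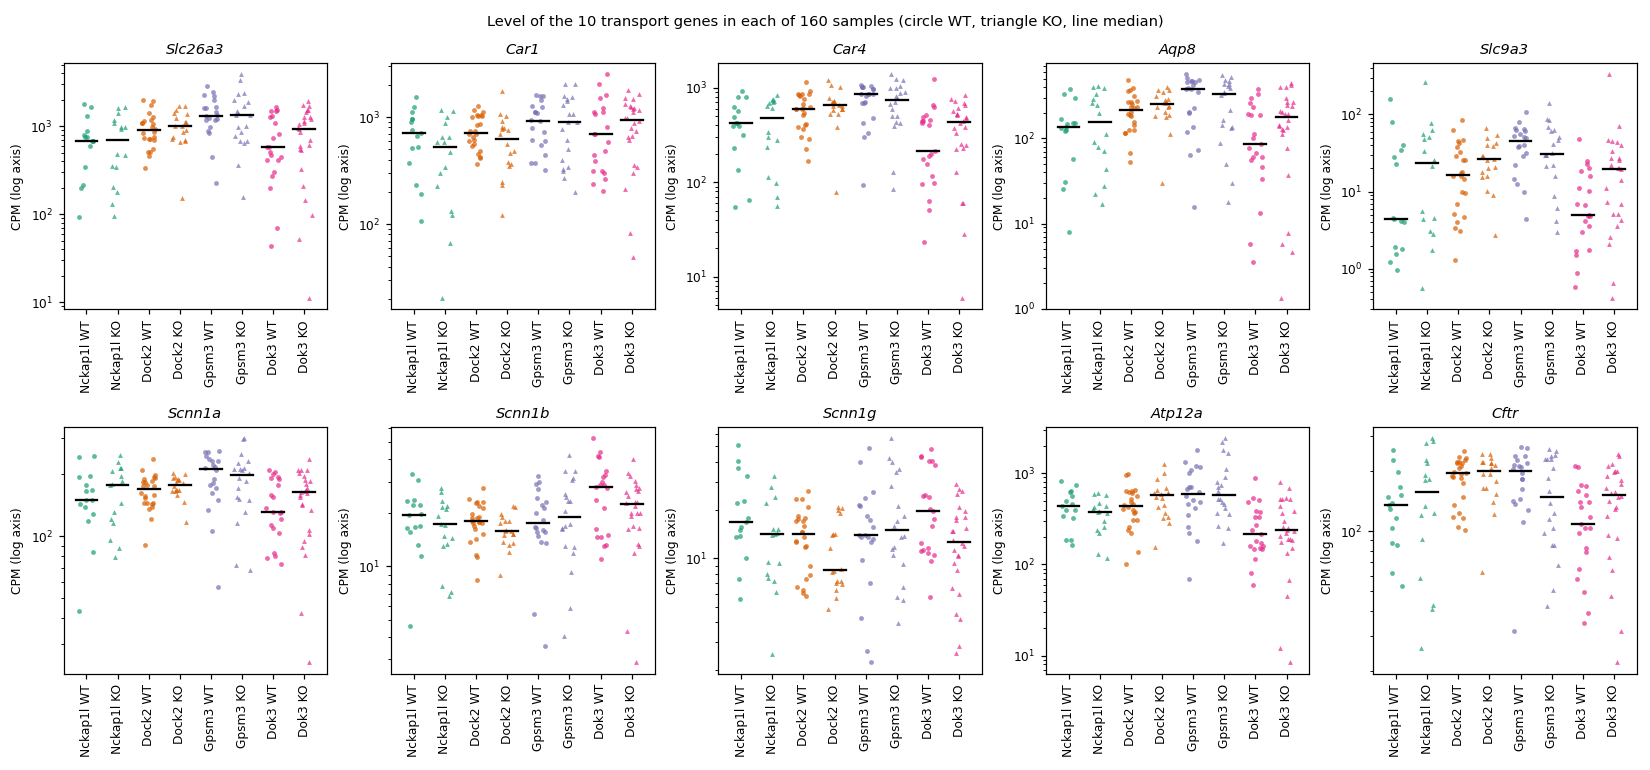
Level of each transport gene in CPM (log axis) in each of the 160 samples, by line and genotype (circles wild type, triangles knockout, black line the group median). Knockout and wild-type points overlap in every panel, *Slc9a3* spans 0.416 to 332 CPM, and *Scnn1a* stays between 24.5 and 298 CPM.

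To compare genes, CPM were divided by the length of their merged exons in kilobases (kb), which for *Slc26a3* includes long annotated upstream exons and may understate its level. In wild types, *Car1* led in each line, with a median of 566 CPM per kb in *Nckap1l*, 573 in *Dock2*, 741 in *Gpsm3* and 559 in *Dok3*, and exceeded *Car4*, the next gene, in 14 of 15, 24 of 24, 18 of 20 and 21 of 21 wild types. *Car4* followed with medians of 215, 302, 434 and 109 CPM per kb in the same order of lines. *Slc26a3*, *Aqp8* and *Atp12a* came next at medians between 53.2 and 238 CPM per kb, and neighbours among these 3 were not well ordered: *Atp12a* exceeded *Slc26a3* in 8 of 15 *Nckap1l* wild types, and *Aqp8* exceeded *Slc26a3* in 7 of 20 *Gpsm3* wild types. *Scnn1a* came sixth in all 4 lines (31.7 to 51.3 CPM per kb) and *Cftr* seventh (13.9 to 25.9). The alpha subunit of ENaC was thus carried at a higher level per length than the beta (6.63 to 10.7) and gamma (4.69 to 6.6) subunits. *Slc9a3* had a median of 0.803 CPM per kb in *Nckap1l* and 0.896 in *Dok3*, 3.03 in *Dock2* and 8.2 in *Gpsm3*, so that it was last in 3 lines and above *Scnn1b* and *Scnn1g* in *Gpsm3*.

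To ask how the transport genes go with inflammation, a score was formed from 18 genes of neutrophils and inflammatory cytokines, among them *S100a8*, *Il1b*, *Cxcl2* and *Il6*. It is the mean of their log2 CPM, and 1 unit is a doubling of their mean level. Centring within a line was done only inside the fits. The scores printed here and plotted are not centred, so 0 is not the mean of a line. The score ran from -1.43 to 6.36 in the *Nckap1l* line, -1.64 to 6.1 in *Dock2*, -1.86 to 5.21 in *Gpsm3* and -1.69 to 7.86 in *Dok3* (the plot of level against score). Transport genes were lower where the score was higher. With genotype and sex in the model, 10 of 10 members fell with the score in *Nckap1l*, 8 in *Dock2*, 10 in *Gpsm3* and 9 in *Dok3* by edgeR's quasi-likelihood test at an adjusted p under 0.05, and none rose. Much of the transcriptome moved with the score too: 24.8% of the 17937 genes tested fell and 23.4% rose in *Nckap1l*, 27.1% and 28.6% of 17634 in *Dock2*, 26.1% and 28% of 17537 in *Gpsm3* and 30.6% and 33% of 17623 in *Dok3*. The median slope of the members was -0.32, -0.18, -0.30 and -0.28 log2 per unit in that order of lines, and the median over all genes lay within 0.00155 of 0 in each.

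*Slc26a3*, *Car4* and *Car1* all fell with the score. *Slc26a3* ranged from 95.2 through a median of 703 to 1655 CPM in *Nckap1l* knockouts and from 93.8 through 674 to 1773 in wild types. The corresponding values were 152, 1001 and 1704 in *Dock2* knockouts and 331, 893 and 1961 in wild types. In *Gpsm3* they were 157, 1335 and 3879 in knockouts and 224, 1312 and 2891 in wild types, and in *Dok3* 11.2, 940 and 1939 against 44, 584 and 1652. Knockout and wild-type ranges overlapped in every line, and the lowest mouse of each of the 8 groups had a score of at least 3.29. Its slope was -0.40 log2 per unit of score in *Nckap1l* (SE 0.06, adjusted p = 3.09e-06), -0.31 in *Dock2* (SE 0.04, adjusted p = 2.24e-07), -0.34 in *Gpsm3* (SE 0.05, adjusted p = 2.03e-06) and -0.39 in *Dok3* (SE 0.06, adjusted p = 7.32e-08), or 0.757-fold, 0.808-fold, 0.79-fold and 0.766-fold per unit. *Car4*, the membrane-bound carbonic anhydrase, ranged from 5.91 to 1393 CPM over all libraries and fell by 0.36, 0.29, 0.32 and 0.41 log2 per unit in the same order. *Car1*, the cytosolic form, ranged from 20.3 to 2508 CPM and fell by 0.42 in *Nckap1l*, 0.29 in *Gpsm3* and 0.33 in *Dok3*. In *Dock2* its slope was -0.15 (SE 0.06, adjusted p = 0.0371), and it missed the threshold in males alone (slope -0.0841, adjusted p = 0.453) and without the 5 libraries with squamous RNA, the latter chosen after seeing the data (slope -0.12, adjusted p = 0.145). The ratio of *Car4* to *Car1* within a library fell with the score in *Dok3* (r -0.48, permutation test, adjusted p = 0.00365). In the other lines the adjusted p of this ratio was at least 0.33.

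*Aqp8*, a channel for water across the colonocyte membrane, had the steepest slope of the 10 genes in each line's own fit, although in *Nckap1l* *Slc9a3* was steeper in the fit over all 160 samples (-0.53 against -0.51) and with the Hox mean as covariate. Its values in *Gpsm3* were 18, 332 and 552 CPM (lowest, median and highest) in knockouts and 15.8, 376 and 565 in wild types, and in *Dok3* 1.33, 178 and 446 against 3.53, 86.9 and 382. In *Nckap1l* they were 17, 156 and 416 against 8.05, 134 and 376, and in *Dock2* 29.9, 250 and 399 against 52.4, 214 and 480. Low and high libraries occurred in both genotypes of each line. Per unit of score *Aqp8* fell by 0.52 log2 in *Nckap1l* (SE 0.07, 0.7-fold, 95% interval 0.638 to 0.768), 0.36 in *Dock2* (SE 0.05, 0.778-fold, 0.727 to 0.832), 0.56 in *Gpsm3* (SE 0.05, 0.678-fold, 0.629 to 0.732) and 0.48 in *Dok3* (SE 0.07, 0.718-fold, 0.654 to 0.789). The largest of the 4 adjusted p-values by edgeR was 1.83e-07. The ratio of *Aqp8* to *Scnn1a* within a library, picked because their slopes were seen to differ and so given as a description, had slopes of -0.36, -0.25, -0.38 and -0.45 log2 per unit in *Nckap1l*, *Dock2*, *Gpsm3* and *Dok3*.

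*Slc9a3*, the sodium/proton exchanger, varied most and followed the score least evenly. Its lowest, median and highest values were 0.559, 23.5 and 264 CPM in *Nckap1l* knockouts and 0.977, 4.42 and 159 in wild types. They were 2.73, 26.2 and 67 against 1.31, 16.7 and 84.3 in *Dock2*, and 2.99, 30.7 and 142 against 4.42, 45.1 and 109 in *Gpsm3*. In *Dok3* they were 0.416, 19.8 and 332 in knockouts and 0.573, 4.93 and 47.7 in wild types. The groups overlapped in each line, and the single highest library was *Dok3* knockout replicate 9, the library with little distal Hox RNA. The slope on the score was -0.48 in *Nckap1l* (SE 0.16, adjusted p = 0.0159), -0.20 in *Dock2* (SE 0.11, adjusted p = 0.114), -0.31 in *Gpsm3* (SE 0.08, adjusted p = 0.00141) and 0.00 in *Dok3* (SE 0.10, adjusted p = 0.987). Without *Dok3* knockout replicate 9, an alternative chosen after seeing the data, the *Dok3* slope was -0.329 with an adjusted p of 0.000686. With that library kept, limma-voom called the slope too (-0.36, adjusted p = 0.00448), so the missing call rests on both the library and edgeR's fit. In *Nckap1l* the call was lost with the mean of 13 epithelial markers as covariate (slope -0.164, adjusted p = 0.197), the squamous mean (-0.224, 0.0901) or the run of sample numbers (-0.291, 0.109), in males alone (-0.416, 0.0633) and with a score of epithelial genes (-0.704, 0.0999). There, 15 of 31 libraries held squamous RNA, and r within the 3 runs was -0.14, -0.76 and -0.88 over 14, 9 and 8 mice.

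The 3 ENaC subunits fell with the score, the alpha subunit most tightly and the gamma subunit least. *Scnn1a* ranged only from 43.3 to 247 CPM in *Nckap1l*, 90.8 to 238 in *Dock2*, 56.8 to 298 in *Gpsm3* and 24.5 to 236 in *Dok3*, both genotypes included. It fell by 0.20, 0.12, 0.21 and 0.22 log2 per unit in those lines, each with an SE of 0.01 to 0.03, and its adjusted p of 6.38e-18 in *Dok3* was the smallest of the 40 member slopes. *Scnn1b* fell by 0.17, 0.10, 0.23 and 0.20 per unit, with adjusted p-values between 3.71e-07 (*Dok3*) and 0.00188 (*Dock2*). *Scnn1g* fell by 0.17 in *Nckap1l* (SE 0.07, adjusted p = 0.034), 0.19 in *Gpsm3* (SE 0.08, adjusted p = 0.0414) and 0.22 in *Dok3* (SE 0.04, adjusted p = 1.63e-05), whereas its slope was -0.05 in *Dock2* (SE 0.06, 95% interval -0.18 to 0.08, adjusted p = 0.553). The *Nckap1l* call was lost without the squamous libraries (adjusted p = 0.111), and the *Gpsm3* call with no filter on low counts (0.0596) and with the epithelial mean as covariate (0.0531). The least-squares slope in *Dock2* went from -0.06 to -0.02 without wild-type replicate 13. The ratios of the subunits within a library did not show a trend with the score by the permutation test of r. Of these 12 tests, adjusted with others over 24 ratio tests, the smallest adjusted p was 0.461, for *Scnn1b* over *Scnn1g* in *Dock2* (r -0.22). The ratio of *Scnn1a* to *Scnn1g* in CPM had a median of 10.7 in *Nckap1l*, 13.4 in *Dock2*, 12.5 in *Gpsm3* and 10.2 in *Dok3*.

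*Atp12a*, the proton/potassium ATPase, fell by 0.20 log2 per unit of score in *Nckap1l*, 0.27 in *Dock2*, 0.31 in *Gpsm3* and 0.36 in *Dok3*, with SEs of 0.04, 0.06, 0.08 and 0.05 and a largest adjusted p of 0.00054 (*Gpsm3*). Its lowest, median and highest values were 172, 584 and 2411 CPM in *Gpsm3* knockouts and 68.5, 590 and 1799 in wild types, and 8.44, 236 and 793 against 59.5, 214 and 884 in *Dok3*. *Cftr*, the secretory chloride channel, also went down: it fell by 0.28, 0.13, 0.19 and 0.20 per unit in *Nckap1l*, *Dock2*, *Gpsm3* and *Dok3*, with a largest adjusted p of 0.000488. Its levels lay between 22 and 293 CPM over all libraries. The *Cftr* locus overlaps the antisense gene *Gm15592* (median 5.78 CPM), and the strand setting of the counting is not given in the sources used here.

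**Figure D2:**
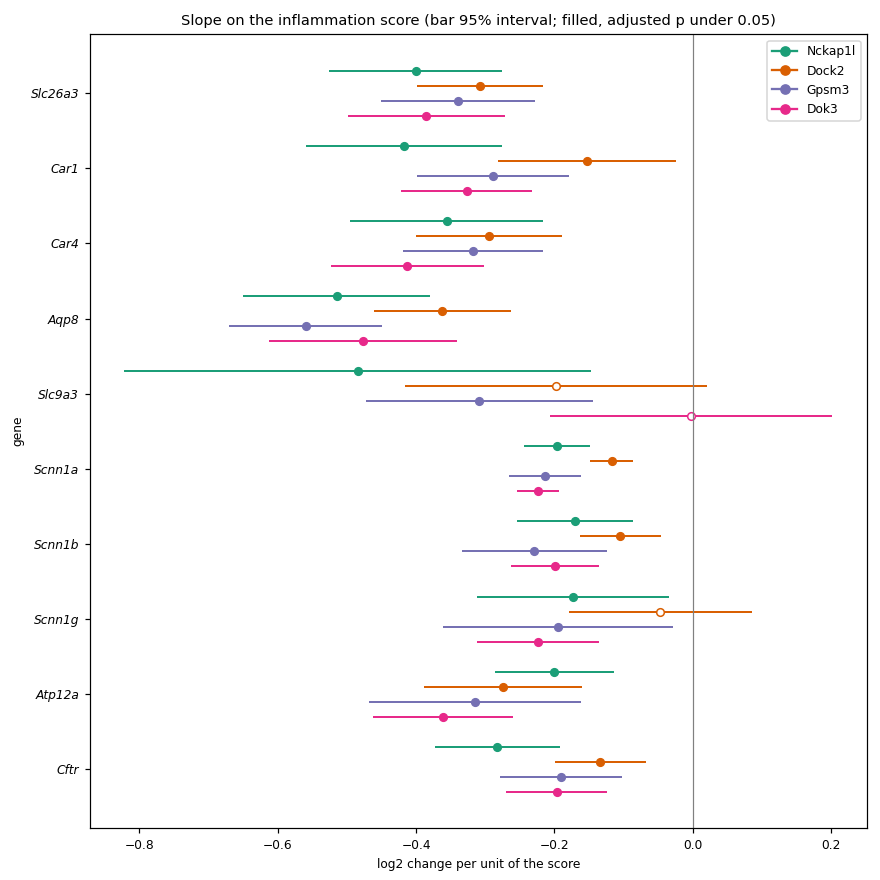
Slope of each transport gene on the inflammation score (log2 change per unit) with its 95% interval, by line. Filled points had an adjusted p under 0.05 in edgeR's quasi-likelihood test, and the 3 open points are *Slc9a3* in *Dock2* and *Dok3* and *Scnn1g* in *Dock2*.

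Correlations across mice of a line measure tightness and not steepness, and *Scnn1a*, with shallow slopes, was among the most tightly related genes. Pearson's r with the score ran from -0.76 to -0.91 for *Aqp8* over the 4 lines, -0.71 to -0.93 for *Scnn1a*, -0.73 to -0.82 for *Slc26a3* and -0.68 to -0.82 for *Car4*. Spearman's rho ran from -0.73 to -0.89, -0.60 to -0.93, -0.73 to -0.85 and -0.66 to -0.79 for the same genes. In 38 of the 40 pairs the permutation p of r, adjusted over the 40, was under 0.05, and in 23 of them it was 1.74e-05, which stems from the smallest p that 100000 permutations can give (1e-05). The exceptions were *Slc9a3* (r -0.19, rho -0.13, adjusted p = 0.238) and *Scnn1g* (r -0.14, rho -0.09, adjusted p = 0.396) in *Dock2*. After leaving out the 2 mice farthest from the median score, r stayed between -0.51 and -0.93 for *Slc26a3*, *Car4*, *Aqp8*, *Scnn1a* and *Atp12a* in each line, and was weakest for *Slc9a3* in *Dock2* (-0.06). Within runs of sample numbers, sexes and genotypes of at least 6 mice, r was negative in 19 of 19 sets for 9 of the genes and in 17 of 19 for *Scnn1g*, whose highest value was 0.19 in *Dock2* knockouts. In *Gpsm3*, whose scores had a gap of 0.982 between 28 lower and 12 higher mice, r was negative on both sides of the gap for all 10 genes, for example -0.74 and -0.71 for *Aqp8* and -0.11 and -0.36 for *Scnn1g*.

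Other RNA moved with the score. The mean log2 CPM of 6 distal Hox genes fell with it, at r = -0.77, -0.68, -0.82 and -0.72 in *Nckap1l*, *Dock2*, *Gpsm3* and *Dok3*, and the summed level of these 6 genes ranged from 203 to 779, 290 to 729, 299 to 750 and 55.9 to 799 CPM. The squamous mean was higher with it, at r = 0.26, 0.36, 0.22 and 0.43. The mean of 13 epithelial markers was lower with it in *Nckap1l* (r = -0.40) and *Dok3* (-0.53), and had r = 0.19 in *Dock2* and -0.02 in *Gpsm3*. With that epithelial mean in the model, 9 of 10 members were called lower in each of the 4 lines, with *Slc9a3* lost in *Nckap1l* and *Scnn1g* in *Gpsm3* (adjusted p = 0.0531), and *Slc9a3* gained in *Dock2* (-0.277, adjusted p = 0.00733). With the Hox mean in the model, an alternative chosen after seeing the data, 9, 7, 7 and 10 members were called. *Car1* and *Scnn1b* were then lost in *Dock2*, *Scnn1g* in *Nckap1l*, and *Car1*, *Scnn1g* and *Atp12a* in *Gpsm3*, whereas *Slc9a3* fell in all 4 lines, by 1.09, 0.56, 0.632 and 0.558 log2 per unit. The part of tissue position in the slopes was not tested further.

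Whether the slopes differ between lines was tested across all 160 samples. Of the members, *Scnn1a* differed (adjusted p = 0.0341), with slopes of -0.20 in *Nckap1l*, -0.12 in *Dock2*, -0.22 in *Gpsm3* and -0.22 in *Dok3*, against 8.24% of 19828 genes called. The other 9 were not called, with *Slc9a3* nearest (slopes -0.53, -0.14, -0.31 and 0.00, adjusted p = 0.0513) and *Car1* next (-0.42, -0.16, -0.29 and -0.32, adjusted p = 0.135). *Scnn1a* missed the threshold in 4 of 7 alternatives: in males alone (adjusted p = 0.173), with the epithelial mean as covariate (0.0559), without the squamous libraries (0.072) and with a score of epithelial genes such as *Lcn2* and *Reg3g* in place of the inflammation score (0.4).

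Knockout and wild-type mice were compared within each line. No member was called in any line by edgeR's quasi-likelihood test, in which 0% of 17953 genes were called in *Nckap1l*, 0.034% of 17646 in *Dock2*, 0.0057% of 17546 in *Gpsm3* and 0% of 17636 in *Dok3*. At an unadjusted p under 0.05 there were 0 members and 812 genes in *Nckap1l*, 0 and 899 in *Dock2*, 0 and 853 in *Gpsm3* and 2 and 387 in *Dok3*. DESeq2 called 21, 76, 4 and 3 genes and limma-voom 0, 0, 1 and 0 in that order of lines, and both called 0 members in each. The 2 *Dok3* genes were *Slc9a3*, at a log2 difference of 1.63 (SE 0.54, 95% interval 0.55 to 2.72, adjusted p = 1), and *Scnn1g*, at -0.74 (SE 0.25, -1.24 to -0.23, adjusted p = 1). Without *Dok3* knockout replicate 9 the difference of *Slc9a3* was 0.97, so that library carried much of it.

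The intervals show how large a difference could have been missed. *Scnn1a* was estimated most closely, at 1.04-fold in *Dock2* knockouts (95% interval 0.942 to 1.16) and 0.963-fold in *Gpsm3* (0.775 to 1.2). *Slc26a3* was at 0.956-fold in *Nckap1l* (0.536 to 1.71), 1.06-fold in *Dock2* (0.798 to 1.41), 1.01-fold in *Gpsm3* (0.69 to 1.49) and 1.21-fold in *Dok3* (0.724 to 2.01). *Aqp8* was at 1.17-fold (0.592 to 2.33), 1.12-fold (0.827 to 1.53), 0.894-fold (0.548 to 1.46) and 1.4-fold (0.755 to 2.6) in the same order. *Scnn1g* was the member with the lowest estimate in *Nckap1l* at 0.651-fold (0.412 to 1.03) and in *Dock2* at 0.803-fold (0.602 to 1.07), but stood at 1.19-fold in *Gpsm3* (0.76 to 1.86). In *Dok3* its lowest, median and highest values were 2.58, 12.7 and 29.2 CPM in knockouts and 5.73, 19.8 and 48.2 in wild types, so the groups overlapped.

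**Figure D3:**
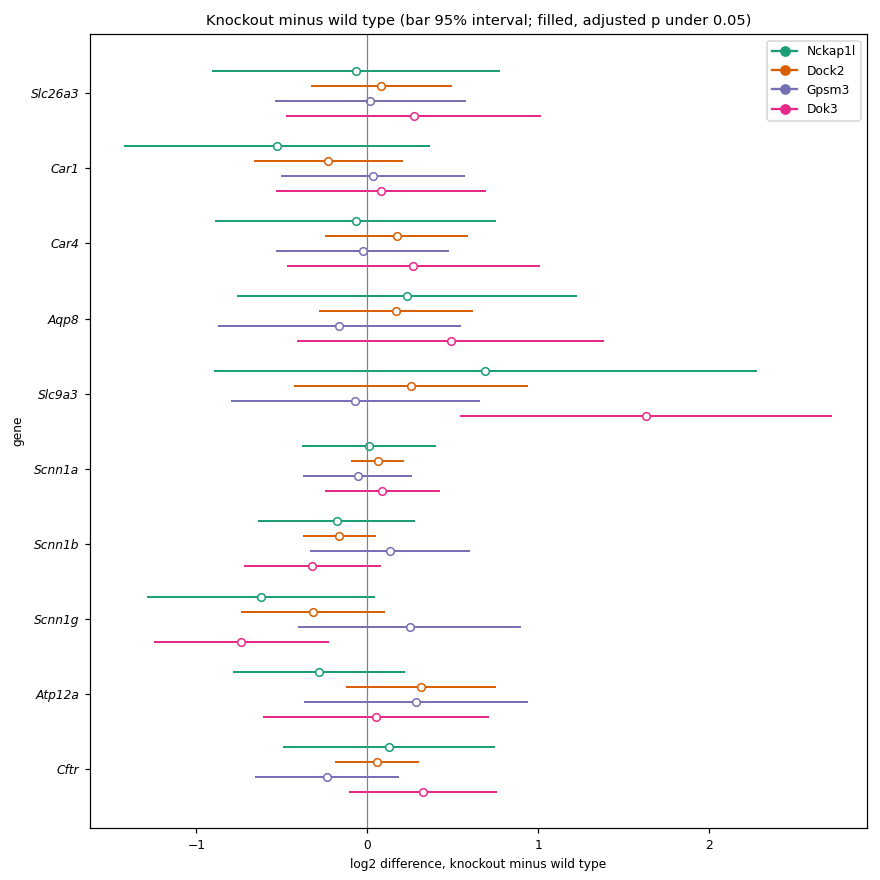
Knockout minus wild type of each transport gene (log2) with its 95% interval, by line. No point is filled, since none had an adjusted p under 0.05, and the intervals of *Slc9a3* and *Scnn1g* in *Dok3* (0.55 to 2.72 and -1.24 to -0.23) are those that leave 0 out.

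Females and males could be compared in 2 lines. In *Dock2*, *Slc9a3* was lower in females: the lowest, median and highest values were 1.31, 15.8 and 46.9 CPM in 20 females and 3.09, 31.2 and 84.3 in 22 males. Female minus male was -1.05 log2 (SE 0.34, 0.482-fold, 95% interval 0.299 to 0.775, edgeR adjusted p = 0.0409), with 9.73% of 17646 genes called and 5.49% called lower in females. The other 9 members were not called in this fit, the next being *Cftr* (0.24, adjusted p = 0.188) and *Scnn1b* (0.21, adjusted p = 0.189). The median inflammation score was -0.98 in females and 0.05 in males. With the score as covariate, edgeR also called *Scnn1a* lower in females (-0.182, adjusted p = 0.0107). Without the squamous libraries, a choice made after seeing the data, it called *Cftr* higher in females (0.264, adjusted p = 0.0226). The *Slc9a3* call was lost with no filter on low counts (adjusted p = 0.0627) and with the epithelial marker mean in the model (-0.511, adjusted p = 0.309), and the median of that mean was 8.92 log2 CPM in females and 9.07 in males. Squamous RNA was in 2 female and 3 male libraries, and *Slc9a3r1*, which encodes a scaffold that binds NHE3, was also lower in females (-0.31, adjusted p = 0.00501). In *Nckap1l*, 0 members were called, with 0.184% of 17953 genes called, and *Slc9a3* differed by 0.63 (SE 0.78, 95% interval -0.97 to 2.22, adjusted p = 0.714). There, 9 of 12 female and 6 of 19 male libraries held squamous RNA, whose part in the result was not tested. Whether the sex difference of *Slc9a3* differed between the 2 lines was not tested.

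To see how members vary among themselves, the mean of each line, genotype and sex group was removed and Pearson's r taken over the 160 samples, which share libraries and depth, so it is a description. *Slc26a3*, *Car4*, *Aqp8* and *Scnn1a* formed a tight block, from 0.86 between *Slc26a3* and *Scnn1a* to 0.94 between *Car4* and *Aqp8*. *Scnn1b* went with *Scnn1g* at 0.81 and with *Scnn1a* at 0.75, whereas *Scnn1a* went with *Scnn1g* at only 0.49. *Scnn1g* had the lowest median r with the other members (0.44), followed by *Slc9a3* (0.53). *Slc9a3* was at 0.06 with *Scnn1g*, 0.27 with *Atp12a* and 0.65 with *Slc26a3*, although NHE3 and SLC26A3 work as a pair, and was closest to *Cftr* (0.71). Against marker lists, *Slc9a3* and *Cftr* had the most negative r with the squamous mean (-0.74 and -0.67). *Slc26a3*, *Car4* and *Aqp8* followed at -0.57, -0.56 and -0.52, while *Scnn1b* and *Scnn1g* were at -0.08 and 0.05. *Atp12a* followed the distal Hox mean most closely (0.72) and *Slc9a3* least (0.06). Both values include *Dok3* knockout replicate 9, whose Hox mean of 0.89 lay far below the others (at least 3.74). They were not taken without it, so how far they rest on that library was not tested.

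For squamous RNA the same contrast showed in the levels. *Slc9a3* had a median of 2.9 CPM (0.416 to 50.6) in the 32 libraries with squamous RNA and of 27 (1.72 to 332) in the other 128. *Cftr* had 85.5 against 186, *Car4* 229 against 628, *Aqp8* 95.5 against 241 and *Slc26a3* 473 against 1097. *Car1* (499 against 793), *Atp12a* (301 against 447) and *Scnn1a* (141 against 182) were lower too. *Scnn1g* had 15.1 against 13.8 and *Scnn1b* 19.4 against 18.4. In *Dok3* knockout replicate 9, which lacked most distal Hox RNA, *Slc9a3* was the highest of all 160 libraries at 332 CPM and *Atp12a* the lowest at 8.44, against ranges of 0.416 to 71 and 12.2 to 793 in the other *Dok3* knockouts. The score of this library was high, with a mean of 4.52 log2 CPM over the inflammation genes against a median of 0.0289 in the others, and its epithelial mean of 9.2 lay near the median of 9.02. Its levels of *Slc26a3* (598 CPM), *Car1* (1200) and *Cftr* (212) lay within the ranges of the other knockouts.

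**Figure D4:**
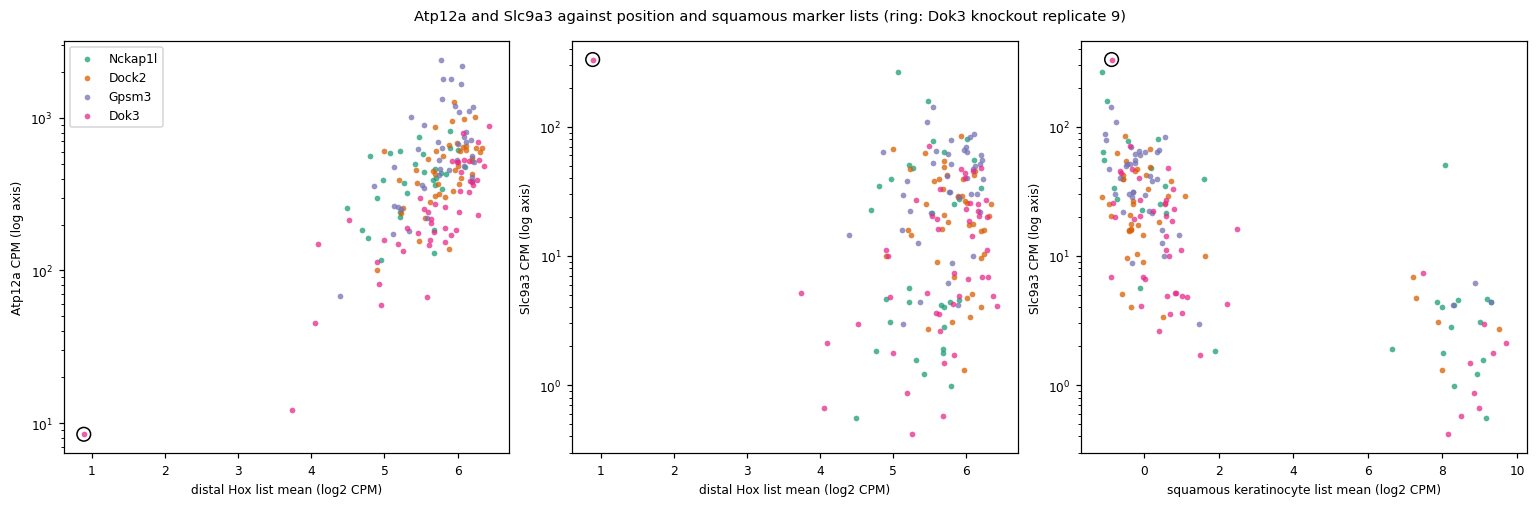
*Atp12a* (left) and *Slc9a3* (middle) in CPM on a log axis against the mean log2 CPM of 6 distal Hox genes, and *Slc9a3* against the mean log2 CPM of 10 squamous genes (right), in 160 samples coloured by line. The ringed library, *Dok3* knockout replicate 9, has the lowest Hox mean (0.89), the lowest *Atp12a* (8.44 CPM) and the highest *Slc9a3* (332 CPM), and the 32 libraries at the right edge of the third panel have a median *Slc9a3* of 2.9 CPM.

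Among 14364 genes with a mean of at least 1 log2 CPM, those most like *Slc26a3*, *Car4*, *Aqp8* and *Scnn1a* in the same residuals reached r values above 0.9. *Slc26a3* was most like *Maoa* (monoamine oxidase A, r = 0.95), *Abat* (GABA transaminase, 0.94) and *Ugt2b34* (a glucuronosyltransferase, 0.93). *Car4* was most like *Selenbp1* (0.94), *Abat* (0.93) and *Ces2c* (a carboxylesterase, 0.93), and *Aqp8* like *Ces2c* (0.95), *Abcb1a* (a drug efflux pump, 0.95) and *Abat* (0.94). *Car1* went with *Car2*, another cytosolic carbonic anhydrase (0.85), *Galm* (0.84) and *Abcb1a* (0.83). *Scnn1a* was most like *Slc15a1* (the peptide transporter PEPT1, 0.93), *Nr3c2* (the mineralocorticoid receptor, 0.93) and *Cyp2d12* (0.93), and *Atp12a* like *Tgm3* (0.83), *Cyp2d12* (0.82) and *Slc15a1* (0.81). *Slc9a3* was less closely matched, by *Acsf2* and *Cyp4f14* (0.80 each), as were *Scnn1b* (*Cobl*, 0.80, *Cyp3a13*, 0.79, and *Golga4*, 0.77) and *Scnn1g* (*Tle4*, 0.66, *Gm11830*, 0.65, and *Snx16*, 0.61). *Cftr* was most like its own antisense neighbour *Gm15592* (0.91), whose reads may be shared with it, then *Slc35a3* and *Map3k21* (0.90 each).

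Beyond the 10 genes, 34 other transport genes were followed. With the score, 20 of 32 tested fell and 4 rose in *Nckap1l*, 16 and 5 of 31 in *Dock2*, 19 and 4 of 31 in *Gpsm3* and 20 and 5 of 31 in *Dok3*, with a median slope of -0.13, -0.07, -0.10 and -0.13. Over all genes tested, 24.8%, 27.1%, 26.1% and 30.6% fell and 23.4%, 28.6%, 28% and 33% rose in these lines. *Slc26a2*, a sulfate/chloride exchanger, fell in each line (by 0.43, 0.36, 0.42 and 0.34 log2 per unit), as did *Car2* (0.38, 0.24, 0.32 and 0.33), *Ano1*, a calcium-activated chloride channel (0.17, 0.09, 0.20 and 0.24), and *Slc5a8*, a sodium-coupled transporter of short-chain fatty acids (0.23, 0.18, 0.24 and 0.33). *Slc4a4*, a sodium bicarbonate cotransporter, fell by 0.33, 0.17, 0.27 and 0.39, and *Slc16a1*, the lactate and butyrate carrier MCT1, by 0.13, 0.13, 0.11 and 0.14. Of the beta subunits of the sodium pump, *Atp1b1* fell in each line (by 0.15, 0.12, 0.11 and 0.17), whereas *Atp1b3* rose in each, by 0.20, 0.14, 0.11 and 0.22. *Car12*, a further membrane-bound carbonic anhydrase, also rose in each line, by 0.31, 0.33, 0.31 and 0.41. *Atp1b1*, *Atp1b3* and *Car12* were named after their values were seen.

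Of 20 genes that regulate transport, 8 fell and 2 rose in *Nckap1l*, 6 and 3 in *Dock2*, 11 and 2 in *Gpsm3* and 10 and 4 in *Dok3*, with medians of -0.03, -0.01, -0.05 and -0.05. Over all genes, 24.8%, 27.1%, 26.1% and 30.6% fell in these lines, so the count in *Dock2* was near that share. The mineralocorticoid receptor gene *Nr3c2* fell in each line, by 0.25, 0.20, 0.23 and 0.29 log2 per unit (adjusted p between 2.59e-15 and 1.93e-08), as did *Vipr1*, the receptor of vasoactive intestinal peptide, by 0.18, 0.10, 0.13 and 0.18, and the epithelial factor *Hnf4a*, by 0.18, 0.08, 0.13 and 0.21. *Klf4*, a factor of differentiated epithelium, fell by 0.12, 0.07, 0.14 and 0.17. The kinase *Wnk4* fell by 0.18 in *Nckap1l*, 0.14 in *Gpsm3* and 0.15 in *Dok3*, with a slope of -0.01 in *Dock2* (adjusted p = 0.701). The kinase *Wnk1* rose slightly in each line, by 0.07, 0.07, 0.05 and 0.08. *Sgk1* and *Nedd4l*, which act on ENaC at the membrane downstream of aldosterone, gave no common direction: *Sgk1* had slopes of -0.01, 0.08, -0.14 and 0.07 and was called in *Gpsm3* (adjusted p = 0.0457), and *Nedd4l* had 0.02, -0.02, -0.03 and -0.05 and was called in *Dok3* (adjusted p = 0.000548). Both were named after their values were seen.

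Between knockouts and wild types, 0 of these 54 genes (those tested in each line) were called in any line by edgeR. The smallest p-values in *Nckap1l* belonged to *Trpv6*, an epithelial calcium channel (log2 difference 1.12, SE 0.28, adjusted p = 0.384), and *Fxyd4*, a regulator of the sodium pump (-0.57, SE 0.32, adjusted p = 1). In *Dock2* they were *St14*, a protease that activates epithelial targets (0.19, adjusted p = 0.548), and *Tmprss4* (0.15, adjusted p = 0.763), in *Gpsm3* *Kcnq1*, a basolateral potassium channel (-0.29, adjusted p = 0.936), and in *Dok3* *Aqp4*, a basolateral water channel (0.72, adjusted p = 1). Between the sexes, 2 of 31 other transport genes were called in *Dock2*, *Slc9a3r1* and the chloride channel *Clcn2* (-0.31, adjusted p = 0.00665), both lower in females, and 0 of 32 in *Nckap1l*. The *Dock2* count was below the 9.73% called over all genes. The slope differed among lines for 3 of 33 other transport genes, *Ano1* (adjusted p = 0.00293), *Kcnn4* and *Slc4a7*, near the 8.24% called over all genes, and for 3 of 20 regulators, *Tsc22d3*, *Wnk4* and *Prkg2*. *Prkg2*, a cGMP-dependent kinase that acts on NHE3 and CFTR, rose by 0.58 per unit in *Dok3* and by 0.25 to 0.27 in the other lines (adjusted p = 0.0201).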

How the data were processed

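RNA of 160 distal colons was sequenced by the authors as stranded, ribosomal RNA-depleted libraries (1×100 bp), and the deposited files hold raw counts per gene, made by the authors with STAR and featureCounts on mm10. Tool versions and the strand setting are not given in the sources used here. Ensembl identifiers were given symbols from GENCODE GRCm38 (37607 of 39179 genes, 99.67% of counts). Groups came from the labels, each line was fitted alone with genotype and sex as terms, and the score was added for slopes. Genes that passed filterByExpr were tested with edgeR 4.0.16 (TMM, quasi-likelihood test, Benjamini-Hochberg adjusted p under 0.05) in R 4.3.3, with DESeq2 1.42.0 and limma 3.58.1 as alternatives. Levels are CPM, and log2 CPM used a prior count of 2. Correlations used 100000 two-sided permutations (scipy 1.17.1) and were adjusted over 40 pairs of gene and line, or over 24 tests for the ratios. Scripts were tested on simulated data: at a log2 genotype difference of 1.5, at least 92.5% of the changed genes were called in each line. Depth was 4344988 to 19993833 counts, so 3 counts are worth 0.15 to 0.69 CPM, which covers counting error only. Named genes were the 10 members, the 3 most alike per member, and the 3 of each list with the smallest p per comparison, other names being marked and some genes not being reported here. Members and lists were chosen with earlier results of these data known. No 2 libraries of a group agreed within sampling noise. DSS status per mouse was not in the labels, so treated and untreated mice were not compared.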

Additional observations from a re-analysis of the deposited data

Results flagged for a closer look

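In 12 groups of 4 to 10 mice of the same line, genotype, sex and run of sample numbers, the 10 genes gave 120 tests for a mouse far from the others (Dixon's criterion), of which 17 were past the limit. Chance passes about 1 in 20 of independent tests. These tests share mice, the genes vary together, and treated and untreated mice are mixed. The 17 can therefore not be judged against that share. Each of the 17 was the lowest value of its group. *Dock2* knockout replicate 13, a female with a score of 3.29 against at most 0.834 in the 7 others, had 152 CPM of *Slc26a3* (others 665 to 1704), 78.1 of *Car4* (386 to 1211), 29.9 of *Aqp8* (180 to 365) and 62.4 of *Cftr* (165 to 243). That library was also the only *Dock2* knockout with squamous RNA (mean 9.51 log2 CPM), with an epithelial mean of 8.35. What part the score or the squamous RNA had in its low values was not tested. *Gpsm3* wild-type replicate 14, with a score of 4.94 against at most 0.687, had 224 CPM of *Slc26a3* (others 844 to 1997), 92.7 of *Car4* (419 to 1073), 15.8 of *Aqp8* (134 to 484), 56.8 of *Scnn1a* (149 to 255) and 3.55 of *Scnn1b* (13.7 to 29.2).

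The remaining values were spread over other mice. *Gpsm3* wild-type replicate 2 had 5.36 CPM of *Scnn1b* (others 13.6 to 32.2) and 2.24 of *Scnn1g* (12.6 to 40.1), at a score of 1.87 within the range of the others (-1.86 to 2.64). Replicate 10 of the same group had 31.7 CPM of *Cftr* (others 111 to 266) at a score of 2.02 and a squamous mean of 9.31 log2 CPM. *Dok3* wild-type replicate 17 had 3.53 CPM of *Aqp8* (others 45.7 to 327) at a score of 4.36. In *Nckap1l*, knockout replicate 14 had 299 CPM of *Car4* (others 695 to 741) and 80 of *Aqp8* (332 to 416). Wild-type replicate 3 of that line had 65.2 CPM of *Car4* (others 233 to 490). Its squamous mean was 9.1 log2 CPM (others -0.0471 to 8.94). *Nckap1l* wild-type replicate 10 had 1.82 CPM of *Slc9a3* (others 27.8 to 39.7) and the highest score of its line, 6.36.

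The slope of *Scnn1a* on the score differed among the 4 lines (edgeR quasi-likelihood test of the interaction, adjusted p = 0.0341), and was shallowest in *Dock2*. The call was lost in 4 of 7 alternatives, with adjusted p-values of 0.0559 to 0.4.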

How the results depend on the processing

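Knockout and wild type gave 0 called members in all 49 alternatives over the 4 lines, which covered DESeq2, limma-voom, RLE size factors, no filter, covariates, single sexes and left-out libraries, although 56 uncalled estimates of 21 gene and line pairs changed sign. The number of members that fell with the score stayed between 9 and 10 in *Nckap1l*, 7 and 9 in *Dock2*, 7 and 10 in *Gpsm3* and 9 and 10 in *Dok3* over 38 alternatives, and no called slope changed sign. In *Dock2*, the number of members that differed between the sexes was 1, but 0 with no filter on low counts and 0 with the epithelial mean as covariate, and 2 with the inflammation score as covariate and 2 without the libraries with squamous RNA. For the slope difference among lines it was 1, but 0 with the epithelial inflammation score, 0 in males only, 2 with limma-voom and 2 with the squamous mean as covariate. *Scnn1a* itself was lost in 4 of 7 alternatives, also where another member kept the count at 1. The cause of these changes was not tested. Covariates of squamous and Hox means, and fits without the squamous or low-Hox libraries, were chosen after seeing the data. No paired analysis was possible because the labels give no replicate numbers that groups share. The lowest *Slc9a3* value, 0.416 CPM, rests on 5 counts, so depth limits the low end of this gene most.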
